A study of Mus musculus with 15 samples.

Results

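The mRNAs of 6 STAT transcription factors, Stat2, Stat3, Stat4, Stat5a, Stat5b and Stat6, were followed through blood monocytes and the macrophages of the mouse small intestine. The 6 genes were matched by symbol to the Ensembl identifiers of a table of 19456 genes, and all 6 were among the 15802 genes that passed the filter on low counts. The 15 RNA-sequencing libraries came from male adult wild type C57BL/6 mice with no treatment. They covered Ly6Chi peripheral blood monocytes (n = 3) and 3 subsets of small intestine macrophages sorted by the surface proteins Tim-4 and CD4, namely cells with neither protein (Tim-4-CD4-, n = 4), with CD4 alone (Tim-4-CD4+, n = 4) and with both (Tim-4+CD4+, n = 4). Each library was a pool of 3 mice, or of 4 for replicate 2 of the monocytes, so that differences between single animals cannot be seen, and p-values measure the spread between pools. Macrophages had been sorted as CD45+CD11b+CD64+MHCII+ cells free of lineage markers, so that MHCII-low macrophages are not covered. The study set these populations beside each other to ask how macrophages separated by Tim-4 and CD4 differ from one another and from their blood precursor.

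STAT proteins are latent transcription factors. A cytokine receptor activates its associated Janus kinases (JAKs), these phosphorylate a STAT, and the STAT pair enters the nucleus and binds the promoters of response genes, among them the SOCS inhibitors that shut the receptor down. In intestinal macrophages the IL-10 receptor, which signals through STAT3, is known for holding inflammatory responses in check. The abundance of a STAT mRNA says nothing of phosphorylation, which was not measured.

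Levels are given as CPM (a gene's counts scaled to a common library size) after TMM scaling, which corrects each library's total for its composition. Library totals ranged from 39388763 to 151510641 counts, with a median of 63249039. The sorting genes followed the gates, since Timd4 (Tim-4) was at 355 ± 25.2 CPM in Tim-4+CD4+ macrophages and at most 4.47 CPM in any other library, and Cd4 was at 22.9 ± 11.2 CPM in Tim-4-CD4- macrophages, 531 ± 51.0 in the Tim-4-CD4+ and 816 ± 80.9 in the Tim-4+CD4+ subset (mean ± SD). The 5 macrophage markers looked for summed to between 5717 and 6990 CPM in the macrophage libraries and to between 1105 and 1296 CPM in monocytes. Although B220+ cells had been gated out, the 5 markers of B and plasma cells summed to between 202 and 390 CPM in the macrophage libraries and to at most 0.379 CPM in monocytes, and the 5 of epithelium to between 7.23 and 18.3 CPM against at most 0.165 CPM. Of the 5 markers of neutrophils and eosinophils looked for, 1 was in the table, at no more than 0.431 CPM. Of the STAT mRNA in these libraries, the share from such cells was not tested.

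Monocytes held more of 5 STAT mRNAs than any macrophage subset did, while Stat4 alone among the 6 was higher in 1 subset than in monocytes and lower in another. In Tim-4-CD4- macrophages all 6 genes differed from monocytes, 5 of them lower and Stat4 higher (edgeR's quasi-likelihood test with Benjamini-Hochberg adjustment over all genes tested, adjusted p under 0.05). Of all genes tested in that comparison, 28.1% were lower and 37.3% higher. In Tim-4-CD4+ macrophages the same 5 genes were lower (background 30.7% lower, 39.1% higher) and Stat4 was not called. In Tim-4+CD4+ macrophages all 6 were lower (31.3% lower, 39.5% higher). The 3 comparisons share the monocyte libraries, and in such bulk samples fewer cells of a type cannot be told apart from less RNA per cell. By the study's methods, gut cells were freed by warm enzyme digestion, while blood was treated with a lysing buffer on ice. Cell type, tissue and preparation therefore cannot be told apart in any comparison with monocytes, those of response genes below included.

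Among the macrophage subsets the differences were fewer, and each called member was lower in the subset with more of the sorting proteins. Tim-4+CD4+ macrophages held less Stat4, Stat5a and Stat5b than Tim-4-CD4- macrophages, 3 of 6 members against a background of 11.9% lower and 11.3% higher. They held less Stat4 than Tim-4-CD4+ macrophages, 1 of 6 members against 1.34% lower and 2.07% higher. Tim-4-CD4+ macrophages held less Stat4 and Stat5a than Tim-4-CD4- macrophages, 2 of 6 members against 5.53% lower and 4.52% higher. This Stat5a call was near the threshold and was kept in only 6 of 23 alternative fits. The median log2 fold change of the 6 genes was -0.25 in Tim-4+CD4+ against Tim-4-CD4- macrophages, where the median over all genes tested was -0.0047.

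**Figure D1:**
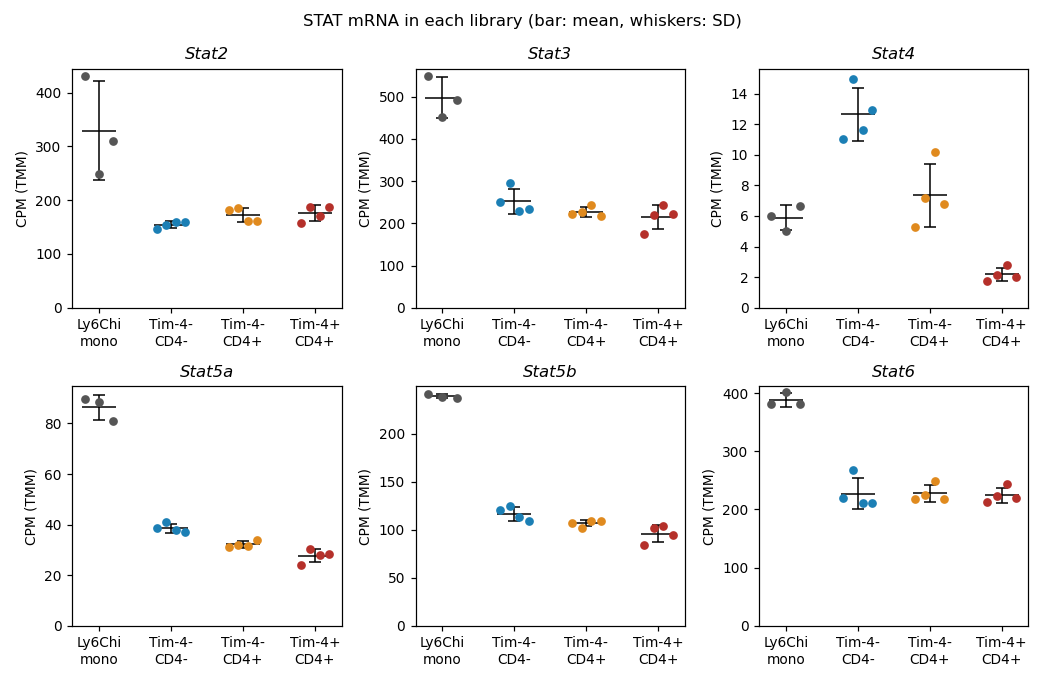
CPM of the 6 STAT genes in each of the 15 libraries, 1 panel a gene with its own axis from 0, points for libraries, bars for group means and whiskers for SD. Monocytes sit above all macrophage libraries for 5 genes, whereas Stat4 is highest in Tim-4-CD4- macrophages (mean 12.6 CPM) and lowest in Tim-4+CD4+ macrophages (2.18 CPM).

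STAT4 is the factor that IL-12 activates, best known from T and NK cells, where it drives interferon-γ. Stat4 (ENSMUSG00000062939.11, GRCm38 chromosome 1, 51987148 to 52107189, plus strand) was the scarcest of the 6 mRNAs per kilobase of exon in every population, and the one that moved most among macrophages. It stood at 6.02, 5.0 and 6.65 CPM in the monocyte libraries and at 11.04, 14.98, 11.64 and 12.92 CPM in Tim-4-CD4- macrophages. The Tim-4-CD4+ libraries held 5.31, 7.16, 10.2 and 6.76 CPM, and the Tim-4+CD4+ libraries 1.77, 2.13, 2.77 and 2.04 CPM. The 3 macrophage subsets did not overlap with one another, and of the Tim-4-CD4+ libraries replicate 1 lay among the monocyte values and the other 3 above them. The annotated gene Gm28177 shares 1033 exon bases with Stat4 on the same strand, and reads there cannot be assigned to either. Gm28177 averaged 0.714 CPM in Tim-4-CD4- and 0.537 CPM in Tim-4+CD4+ macrophages, and what the shared bases add to or take from Stat4 was not tested. The study had picked out Stat4 from these same samples as higher in both Tim-4- subsets than in monocytes and in Tim-4+CD4+ macrophages. Its direction here is therefore not independent evidence.

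Stat4 was lower in Tim-4+CD4+ than in Tim-4-CD4- macrophages by a log2 fold change of -2.54 ± 0.20 (SE), 5.83-fold (edgeR adjusted p = 1.12e-07). It was 3.39-fold lower in Tim-4+CD4+ than in Tim-4-CD4+ macrophages, by log2 -1.76 ± 0.20 (adjusted p = 3.03e-05 by the same edgeR test), and lower in Tim-4-CD4+ than in Tim-4-CD4- macrophages by -0.78 ± 0.19 (edgeR adjusted p = 0.0128). Against monocytes it was 2.15-fold higher in Tim-4-CD4- macrophages (log2 1.10 ± 0.21, edgeR adjusted p = 0.00019) and 2.71-fold lower in Tim-4+CD4+ macrophages (log2 -1.44 ± 0.20, edgeR adjusted p = 9.14e-06). In Tim-4-CD4+ macrophages the difference from monocytes was 0.32 ± 0.20, with a 95% interval from -0.11 to 0.75 (edgeR adjusted p = 0.165). This depended on 1 library, since without Tim-4-CD4+ replicate 1 it was 0.47 with an edgeR adjusted p of 0.0453.

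Some cell type markers differed along with Stat4. Ccr2, the chemokine receptor of Ly6Chi monocytes, was at 2630 ± 341 CPM in monocytes and averaged 660 ± 106, 84.1 ± 21.6 and 8.39 ± 5.04 CPM in Tim-4-CD4-, then Tim-4-CD4+, then Tim-4+CD4+ macrophages, whereas Ly6c2, which encodes the Ly6C protein of these monocytes, was at no more than 3.46 CPM in any macrophage library. The 6 dendritic cell markers summed to between 116 and 178 CPM in Tim-4-CD4- macrophages, 107 and 156 in the Tim-4-CD4+ subset and 103 and 137 CPM in the Tim-4+CD4+ subset. Among them Flt3 and Ccr7 averaged 8.65 ± 6.31 and 7.18 ± 4.84 CPM in Tim-4-CD4- macrophages. Of these macrophages replicate 3 had the highest values (17.9 and 14.3 CPM), and Stat4 was at 11.64 CPM there. In monocytes Flt3 was higher than in any macrophage library, at 21.8, 33.4 and 33.5 CPM, while Ccr7 was at most 0.135 CPM. In the Tim-4-CD4+ subset Flt3 and Ccr7 averaged 0.83 ± 0.524 and 2.66 ± 0.816 CPM, and in Tim-4+CD4+ macrophages 0.572 ± 0.172 and 1.85 ± 0.716 CPM. Only these 2 of the 6 passed the edgeR test in Tim-4+CD4+ against Tim-4-CD4- macrophages, both lower (all genes 11.9% lower, 11.3% higher). Most of the summed level was Dpp4 (103.1 ± 16.6 CPM in Tim-4-CD4- against 93.01 ± 12.5 CPM in Tim-4+CD4+ macrophages). Clec9a was at 24.7 to 36.2 CPM in Tim-4-CD4- and 21.2 to 37.1 CPM in Tim-4+CD4+ libraries. In the same order Xcr1 was at 1.84 to 4.22 and 1.78 to 3.38 CPM, and Zbtb46 at 0.93 to 5.3 and 0.72 to 2.43 CPM. The 11 markers of T cells, NK cells and innate lymphoid cells summed to between 5.07 and 9.42 CPM in Tim-4-CD4- macrophages, 11.1 and 17.0 in the Tim-4-CD4+ subset and 8.19 and 10.45 CPM in the Tim-4+CD4+ subset. Within that list Klrb1c, an NK cell receptor, had the order of Stat4, at 0.937 ± 0.258, 0.537 ± 0.0783 and 0.36 ± 0.0969 CPM. It was the 1 marker of 11 that passed the test in Tim-4+CD4+ against Tim-4-CD4- macrophages (edgeR adjusted p = 0.00774), where 11.9% of all genes were lower and 11.3% higher. The median log2 fold change of the 11 markers in this comparison was 0.49, the other way from Stat4. Ncr1, another NK cell receptor, averaged 0.147, 0.169 and 0.0397 CPM in the 3 subsets. The sort of the macrophages had left out cells that stained for TCRβ, a T cell receptor chain, or for Ly6C. The part of these cells in the Stat4 difference was not tested. Leaving out each library in turn, the log2 fold change of Stat4 in Tim-4+CD4+ against Tim-4-CD4- macrophages stayed between -2.66 and -2.44.

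Both chains of the IL-12 receptor, through which STAT4 is reached, were lowest in the macrophage subset that held the most Stat4. Il12rb1, the chain shared by the IL-12 and IL-23 receptors, was at 20.1, 23.5, 19.3 and 17.4 CPM in Tim-4-CD4- macrophages, 30.1, 31.1, 36.6 and 32.4 CPM in the Tim-4-CD4+ subset and 46.3, 44.5, 41.5 and 42.5 CPM in the Tim-4+CD4+ subset. Il12rb2, the chain particular to IL-12, was at 6.46, 5.71, 6.83 and 7.01 CPM, then 32.0, 30.5, 25.7 and 28.7 CPM, and 15.2, 27.8, 25.6 and 25.1 CPM in the same order of subsets. Every Tim-4+CD4+ library held more of both chains and less Stat4 than every Tim-4-CD4- library. Tim-4+CD4+ macrophages exceeded Tim-4-CD4- macrophages by log2 1.12 ± 0.31 for Il12rb1 (edgeR adjusted p = 0.0141) and by 1.85 ± 0.16 for Il12rb2 (edgeR adjusted p = 3.03e-07). Il12rb2 was also higher in Tim-4-CD4+ than in Tim-4-CD4- macrophages, by 2.17 ± 0.16 (edgeR adjusted p = 3.57e-07), where Il12rb1 missed the threshold (0.69 ± 0.31, edgeR adjusted p = 0.184). Even so, every Tim-4-CD4+ library held more Il12rb1 than every Tim-4-CD4- library. The spread that enters the test is estimated over all populations, monocytes included. In monocytes the chains were unlike each other, with Il12rb1 at 0.755 ± 0.831 CPM and Il12rb2 at 17.3 ± 2.08 CPM. Il23r stayed at or below 0.421 CPM in every macrophage library and had no count in the 3 monocyte libraries, where 3 counts would have been 0.0213 to 0.0557 CPM.

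**Figure D2:**
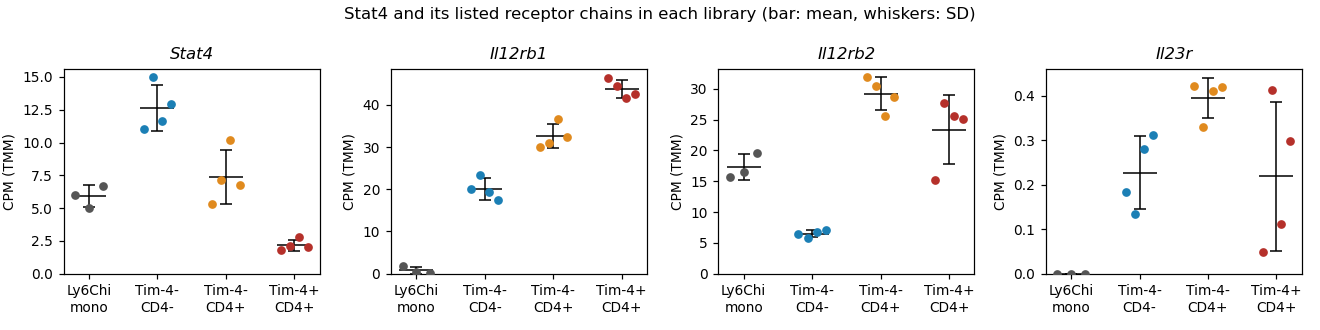
CPM of Stat4 and of the receptor chains Il12rb1, Il12rb2 and Il23r in each library, 1 panel a gene with its own axis from 0, points for libraries, bars for means and whiskers for SD. In Tim-4-CD4- macrophages the means are 12.6 CPM for Stat4 and 20.1 CPM for Il12rb1, and in the Tim-4+CD4+ subset they are 2.18 and 43.7 CPM.

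Of the 5 response genes listed for STAT4, 2 were higher and 1 lower in Tim-4+CD4+ than in Tim-4-CD4- macrophages (all genes 11.3% higher, 11.9% lower). Hlx, a homeobox factor of the interferon-γ programme, was higher (238 ± 34.6 against 146 ± 14.8 CPM, log2 0.70 ± 0.12, edgeR adjusted p = 0.000408), and Il18rap, an IL-18 receptor chain, was lower (0.928 ± 0.115 against 3.72 ± 1.41 CPM, log2 -2.0 ± 0.37, edgeR adjusted p = 0.000869).

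The windows before the 2 RefSeq start sites of Stat4 are shown because this member alone was called in all 3 comparisons among the macrophage subsets. That of Stat2 is shown because STAT2 itself acts at interferon elements. RefSeq sequences on GRCm38.p6 covered all 6 genes in 9 entries of 300 bases each. They were searched on both strands for the STAT site TTCNNNGAA and for GAAANNGAA, the core of the interferon-stimulated response element. Capitals mark a match to the latter, and the 250 bases before each start site are printed.
Stat4, chr1:51986898-51987147, plus strand: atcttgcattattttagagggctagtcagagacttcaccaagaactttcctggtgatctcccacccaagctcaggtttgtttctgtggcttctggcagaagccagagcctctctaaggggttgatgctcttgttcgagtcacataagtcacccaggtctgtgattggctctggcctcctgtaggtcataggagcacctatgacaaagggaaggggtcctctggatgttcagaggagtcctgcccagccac
Stat4, chr1:52007990-52008239, plus strand: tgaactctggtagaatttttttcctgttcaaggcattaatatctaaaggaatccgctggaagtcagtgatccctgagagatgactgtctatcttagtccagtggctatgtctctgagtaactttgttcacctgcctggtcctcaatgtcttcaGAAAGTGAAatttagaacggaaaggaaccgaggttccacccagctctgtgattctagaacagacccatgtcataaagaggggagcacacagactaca
Stat2, chr10:128270248-128270497, plus strand: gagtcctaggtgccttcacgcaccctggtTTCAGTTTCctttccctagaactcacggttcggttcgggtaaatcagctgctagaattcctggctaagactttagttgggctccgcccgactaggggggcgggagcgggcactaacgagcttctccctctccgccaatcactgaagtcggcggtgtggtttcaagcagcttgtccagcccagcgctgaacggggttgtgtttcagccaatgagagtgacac

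None of the 9 entries held TTCNNNGAA, a motif in 8.3% of the 32851 promoters searched. The downstream Stat4 window held 1 match to GAAANNGAA on the plus strand and the Stat2 window 1 on the minus strand, as did 8.56% of all promoters on either strand, and no match overlapped the other motif. A match is a description of these letters and not a binding site.

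Stat5a and Stat5b encode near-identical proteins that serve GM-CSF, IL-3, erythropoietin and other receptors, and they lie beside each other on chromosome 11, Stat5a at 100859351 to 100885169 on the plus strand and Stat5b at 100780731 to 100850724 on the minus strand (GRCm38). The study counted uniquely mapped reads, so a read that matches both genes equally was lost to each. Stat5a was at 89.9, 88.5 and 80.9 CPM in monocytes and at 38.8, 40.9, 37.8 and 36.9 CPM in Tim-4-CD4- macrophages. It was at 31.3, 31.8, 31.6 and 34.1 CPM in the Tim-4-CD4+ subset and at 24, 30.3, 28.0 and 28.3 CPM in the Tim-4+CD4+ subset. No 2 of the 4 populations overlapped, but Tim-4+CD4+ against Tim-4-CD4+ macrophages was not called (log2 -0.22 ± 0.08, edgeR adjusted p = 0.184).

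Stat5b was at 241, 239 and 238 CPM in monocytes and at 120, 124, 113 and 109 CPM in Tim-4-CD4- macrophages. The Tim-4-CD4+ libraries held 107, 102, 109 and 109 CPM and the Tim-4+CD4+ libraries 83.7, 102, 103 and 94.5 CPM. Monocytes stood apart, the Tim-4-CD4+ libraries overlapped with both other subsets, and every Tim-4+CD4+ library lay below every Tim-4-CD4- library. On the scale of CPM per kilobase of exon, Stat5b averaged 43.2 ± 0.338 and Stat5a 12.1 ± 0.681 in monocytes.

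Against monocytes Stat5a was 2.24-fold lower in Tim-4-CD4-, 2.68-fold lower in Tim-4-CD4+ and 3.13-fold lower in Tim-4+CD4+ macrophages (log2 -1.16, -1.42 and -1.64, each ± 0.08, edgeR adjusted p = 3.08e-09, 1.92e-10 and 2.74e-11). Stat5b was lower by log2 -1.04, -1.17 and -1.32, each ± 0.08 (edgeR adjusted p = 1.22e-08, 2.34e-09 and 4.38e-10). Both genes were lower in Tim-4+CD4+ than in Tim-4-CD4- macrophages, Stat5a by -0.48 ± 0.08 (edgeR adjusted p = 0.000296) and Stat5b by -0.28 ± 0.08 (edgeR adjusted p = 0.0152). The Stat5b call was lost without Tim-4-CD4- replicate 2 (-0.24, edgeR adjusted p = 0.0535) and when only these 2 subsets were fitted (-0.27, edgeR adjusted p = 0.0542). In Tim-4-CD4+ against Tim-4-CD4- macrophages Stat5a differed by -0.26 ± 0.08 (edgeR adjusted p = 0.0468), a call kept in 6 of 23 alternative fits, whose adjusted p ran from 0.0105 to 0.119. All 6 STAT genes had the lowest value of their subset in Tim-4+CD4+ replicate 1. Without that library the difference from Tim-4-CD4- macrophages was -0.41 for Stat5a (edgeR adjusted p = 0.000307) and -0.22 for Stat5b (edgeR adjusted p = 0.0254). The means of Ccr2, given above, had the same order of subsets as both genes, and its bearing on them was not tested.

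The ratio of Stat5b to Stat5a counts, in which depth and scaling cancel, was computed after the levels had been seen. It was 2.77 ± 0.143 in monocytes (n = 3). Tim-4-CD4- macrophages averaged 3.02 ± 0.0635, the Tim-4-CD4+ subset 3.31 ± 0.137 and the Tim-4+CD4+ subset 3.47 ± 0.168 (n = 4 each). Each subset lay above all monocyte libraries, and Tim-4-CD4- macrophages lay below both other subsets. All 5 of these differences had p = 0.0286 in two-sided exact permutation tests, the smallest value these numbers of libraries allow, and p = 0.0343 after adjustment over 6 pairs. The ratios of Tim-4+CD4+ libraries overlapped with those of the Tim-4-CD4+ subset (exact permutation p = 0.229).

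**Figure D3:**
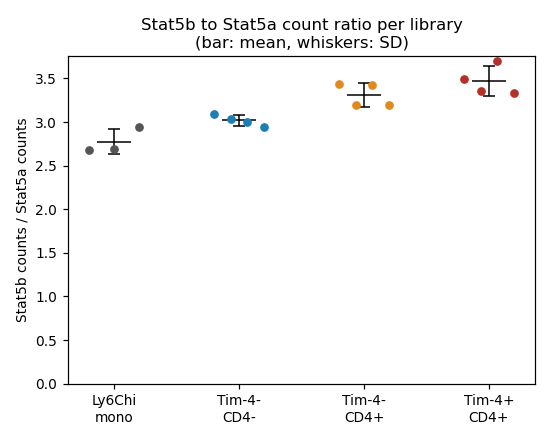
Ratio of Stat5b to Stat5a counts in each library on an axis from 0, points for libraries, bars for means and whiskers for SD. The mean is 2.77 in monocytes, while Tim-4-CD4- macrophages average 3.02, the Tim-4-CD4+ subset 3.31 and the Tim-4+CD4+ subset 3.47.

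A pair of Stat5a and Stat5b windows is printed to show the longest stretch that the neighbours share before their RefSeq start sites. Of the 4 pairings of their RefSeq entries, this one held the longest stretch of identical bases in the same orientation, 16 bases in capitals, against 11, 9 and 7 in the others. Both printed windows lie inside the spans of their genes, before the downstream start site of each. The window before the upstream Stat5b start shared no more than 11 bases with a Stat5a window.
Stat5a, chr11:100860234-100860483, plus strand: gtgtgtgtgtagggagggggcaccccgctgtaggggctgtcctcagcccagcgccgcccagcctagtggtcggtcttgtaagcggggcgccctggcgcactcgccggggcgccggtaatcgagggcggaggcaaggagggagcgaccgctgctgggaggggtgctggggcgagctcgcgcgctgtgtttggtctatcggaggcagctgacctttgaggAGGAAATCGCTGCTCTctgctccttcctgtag
Stat5b, chr11:100822571-100822820, minus strand: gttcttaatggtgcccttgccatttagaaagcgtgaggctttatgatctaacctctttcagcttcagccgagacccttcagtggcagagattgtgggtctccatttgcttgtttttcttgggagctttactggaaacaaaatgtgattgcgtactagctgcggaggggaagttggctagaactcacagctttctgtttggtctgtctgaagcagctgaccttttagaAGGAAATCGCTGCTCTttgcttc

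Receptors that use STAT5 moved both ways. Of the 14 chains listed, 11 were tested, and 4 were higher and 3 lower in Tim-4+CD4+ than in Tim-4-CD4- macrophages (all genes 11.3% higher, 11.9% lower), with a median log2 fold change of 0.29. Epor, the erythropoietin receptor, averaged 6.71 ± 0.884 CPM in Tim-4-CD4- macrophages, 16.6 ± 2.37 CPM in the Tim-4-CD4+ and 41.1 ± 9.43 CPM in the Tim-4+CD4+ subset, against 0.0251 ± 0.014 CPM in monocytes. It was higher by log2 2.61 ± 0.16 in Tim-4+CD4+ than in Tim-4-CD4- macrophages (edgeR adjusted p = 8.41e-09). Csf2rb2, a chain of the IL-3 receptor, was higher (308 ± 29.8 against 194 ± 11.2 CPM), while Il3ra (17.2 ± 3.22 against 29.2 ± 4.04 CPM) and Il7r, the IL-7 receptor (2.63 ± 0.755 against 7.31 ± 0.623 CPM), were lower. Of 7 STAT5 response genes 1 was higher, Socs2, a STAT5-induced inhibitor, at 21.2 ± 2.07 against 10.6 ± 1.07 CPM (log2 1.00 ± 0.22, edgeR adjusted p = 0.00259), and none was lower, a share near that background. Cish, another inhibitor induced by STAT5, stood at 18.6 ± 2.61 and 15.2 ± 2.83 CPM (edgeR adjusted p = 0.293). Against monocytes 1 of the 7 was lower and 6 were higher in Tim-4-CD4- macrophages, among the latter Cish (0.53 ± 0.238 CPM in monocytes) and Osm, the cytokine oncostatin M (98.6 ± 14.7 against 3.56 ± 0.368 CPM), where Stat5a and Stat5b mRNA were lower. Of all genes tested there, 37.3% were higher and 28.1% lower.

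STAT3 carries the signals of IL-10, IL-6 and related cytokines. Stat3 (ENSMUSG00000004040.16, chromosome 11, 100885098 to 100939540, minus strand) shares 72 exon bases with the end of Stat5a on the opposite strand. It was at 548, 452 and 492 CPM in monocytes and at 251, 294, 229 and 233 CPM in Tim-4-CD4- macrophages. It was at 222, 227, 244 and 216 CPM in the Tim-4-CD4+ subset and 176, 220, 243 and 223 CPM in the Tim-4+CD4+ subset. The subsets overlapped with one another and lay below all monocyte libraries. Stat3 was lower than in monocytes by log2 -0.98 ± 0.11, -1.13 ± 0.11 and -1.21 ± 0.11 in the 3 subsets (edgeR adjusted p = 1.17e-06, 1.87e-07 and 7.61e-08). Tim-4+CD4+ macrophages differed from the Tim-4-CD4- subset by -0.23 ± 0.11, with a 95% interval from -0.45 to 0.00069 (edgeR adjusted p = 0.146).

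Although Stat3 passed no test among the subsets, several of its listed response genes did. Of 8, 4 were lower and 1 higher in Tim-4+CD4+ than in Tim-4-CD4- macrophages (all genes 11.9% lower, 11.3% higher), with a median log2 fold change of -0.38. Socs3, the inhibitor of IL-6 receptor signalling, was at 993 ± 69.9 CPM in Tim-4-CD4- and 528 ± 30.1 CPM in Tim-4+CD4+ macrophages (log2 -0.91 ± 0.11, edgeR adjusted p = 1.43e-05). Il1rn, the antagonist of the IL-1 receptor, was at 212 ± 29.4 and 104 ± 13.7 CPM, and Etv3, a repressor induced by IL-10, was at 472 ± 29.7 and 309 ± 42.5 CPM. Cd163, the haemoglobin scavenger receptor, went against them, at 137 ± 25.8 CPM in Tim-4-CD4- and 552 ± 169 CPM in Tim-4+CD4+ macrophages. Of 10 receptor chains 3 were lower, Il6ra (215 ± 34.9 against 286 ± 41.0 CPM), Lifr (112 ± 26.6 against 160 ± 18.2 CPM) and Il27ra (1.10 ± 0.292 against 2.93 ± 0.443 CPM), and none was higher. Against monocytes, 6 of the 8 response genes were higher in Tim-4-CD4- macrophages, including Socs3 (99.3 ± 8.47 CPM in monocytes), and 1 was lower, where 37.3% of all genes were higher and 28.1% lower.

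STAT2 joins IRF9 on interferon-stimulated genes after type I interferon binds IFNAR. Stat2 (ENSMUSG00000040033.15, chromosome 10, 128270559 to 128292849, plus strand) was at 430.7, 248.8 and 309.4 CPM in monocytes, the widest spread of any member in that population. It was at 146, 154, 159 and 160 CPM in Tim-4-CD4- macrophages, 182, 186, 162 and 161 CPM in the Tim-4-CD4+ subset and 158, 187, 170 and 188 CPM in the Tim-4+CD4+ subset. Even the lowest monocyte library lay above the highest macrophage library, and the Tim-4-CD4+ values began just above the highest Tim-4-CD4- value. The log2 fold changes against monocytes were -1.09 ± 0.14, -0.93 ± 0.14 and -0.91 ± 0.14 (edgeR adjusted p = 2.73e-06, 1.36e-05 and 1.77e-05). Stat2 was the one member with a higher mean in both CD4+ subsets than in Tim-4-CD4- macrophages, by 0.16 ± 0.13 and 0.19 ± 0.13, neither past the threshold (edgeR adjusted p = 0.53 and 0.332).

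Most of its listed partners and targets were lower in Tim-4-CD4- macrophages than in monocytes too. Irf9 was at 189 ± 10.3 CPM in monocytes and 118 ± 5.05 CPM in Tim-4-CD4- macrophages, and 10 of 14 interferon-stimulated genes were lower there and 2 higher (all genes 28.1% lower, 37.3% higher). Oas3, an antiviral oligoadenylate synthetase, was at 401 ± 108 CPM in monocytes and 54.7 ± 8.27 CPM in Tim-4-CD4- macrophages, and Cmpk2, a mitochondrial nucleotide kinase, at 108 ± 5.27 and 21.9 ± 4.54 CPM, whereas Ifi44 was higher in the macrophages (25.6 ± 5.58 against 6.26 ± 3.4 CPM). In Tim-4+CD4+ against Tim-4-CD4- macrophages 1 of the 14 was higher, Isg15, a ubiquitin-like modifier (197 ± 42.2 against 115 ± 7.44 CPM), and 1 lower, Oas3 (29.9 ± 8.03 against 54.7 CPM), which is no more than the background of 11.3% higher and 11.9% lower. The receptor chains Ifnar1 (204 ± 22.6 against 283 ± 18.01 CPM) and Ifnar2 (132 ± 6.43 against 159 ± 3.01 CPM) were lower in Tim-4+CD4+ macrophages, as was Usp18, which dampens the receptor (17.8 ± 3.09 against 30.1 ± 4.49 CPM).

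STAT6 answers IL-4 and IL-13. Stat6 (ENSMUSG00000002147.18, chromosome 10, 127642986 to 127660957, plus strand) was at 381, 402 and 382 CPM in monocytes. It was at 220, 268, 212 and 211 CPM in Tim-4-CD4- macrophages, 219, 225, 250 and 218 CPM in the Tim-4-CD4+ subset and 213, 222, 243 and 219 CPM in the Tim-4+CD4+ subset. Stat6 shares 40 exon bases with Nab2 on the opposite strand, which averaged 19.5 ± 2.8 CPM in monocytes and between 59.6 and 64.5 CPM in the subsets, and its part in the Stat6 values was not tested. The 3 subsets overlapped in Stat6 with one another and lay below monocytes, by log2 -0.77 ± 0.09, -0.77 ± 0.09 and -0.79 ± 0.09 (edgeR adjusted p = 1.91e-06, 1.72e-06 and 1.15e-06). Among the subsets the log2 differences lay between -0.022 and 0.0024, and their sign turned with the scaling or the library left out, while the 95% intervals ran no further than -0.21 and 0.19. On the scale of CPM per kilobase of exon it was the most abundant member in every population, at 88.2 ± 2.63 in monocytes and 50.97 ± 3.003 in Tim-4+CD4+ macrophages, followed in the latter by Stat2 (29.7 ± 2.43), Stat3 (22.6 ± 2.97), Stat5b (17.3 ± 1.62), Stat5a (3.88 ± 0.373) and Stat4 (0.562 ± 0.109). In Tim-4-CD4- macrophages Stat3 (26.4 ± 3.14) and Stat2 (26.1 ± 1.04) could not be ordered beyond their spread.

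Stat6 differed little among the subsets, but its listed response genes did not stay together. Of 10, 4 were lower and 2 higher in Tim-4+CD4+ than in Tim-4-CD4- macrophages (all genes 11.9% lower, 11.3% higher). Retnla, which encodes the alternative activation factor RELM-α, was at 14.9, 8.29, 17.8 and 11.9 CPM in Tim-4-CD4-, at most 0.354 CPM in the Tim-4-CD4+ subset and between 0.796 and 2.43 CPM in the Tim-4+CD4+ subset, and had no count in monocytes. The study picked Retnla from these samples, so its direction is not independent evidence. Ccl22, a chemokine that dendritic cells also make, was at 23.1, 14.4, 55.9 and 13.5 CPM in Tim-4-CD4- macrophages, highest in the replicate 3 that was also highest for Flt3 and Ccr7, and between 2.54 and 5.29 CPM in Tim-4+CD4+ macrophages. The chemokine Ccl24 (119 ± 13.2 against 20.2 ± 1.88 CPM) and Pdcd1lg2, the ligand PD-L2 (49.1 ± 5.50 against 24.7 ± 1.23 CPM), were higher in Tim-4+CD4+ macrophages. The receptor chain Il4ra was at 461 ± 30.3 and 448 ± 23.8 CPM and Il13ra1 at 90.9 ± 17.4 and 105 ± 6.66 CPM in the same pair, neither past the threshold (edgeR adjusted p = 0.87 and 0.28). Il4ra was higher and Il13ra1 lower in Tim-4-CD4- macrophages than in monocytes (192 ± 58.3 and 207 ± 20.6 CPM).

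**Figure D4:**
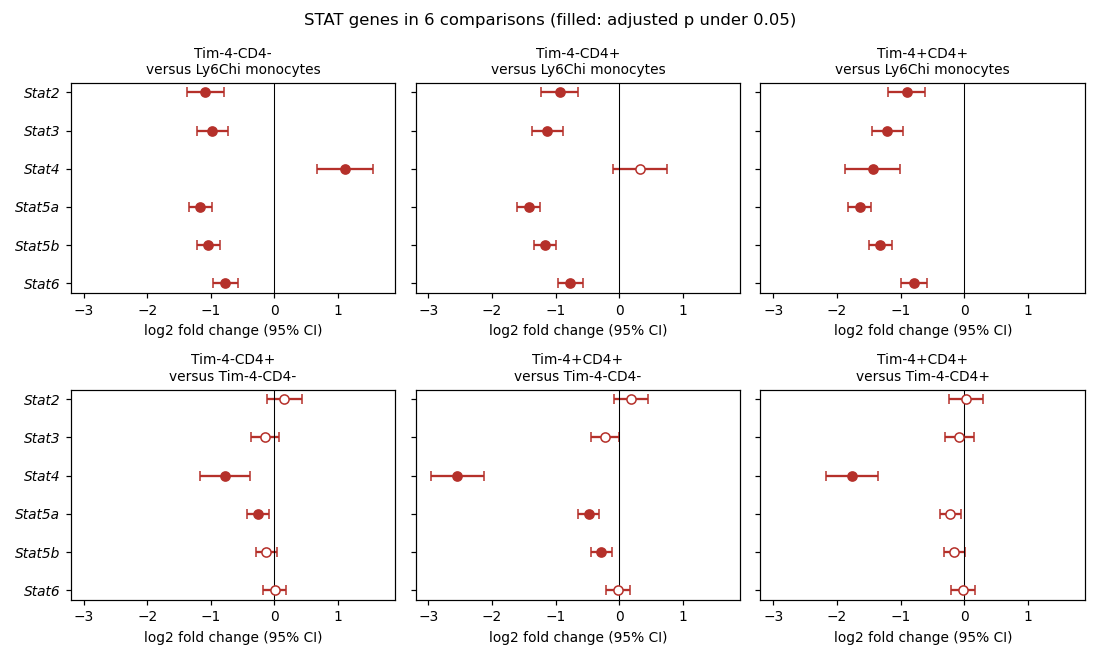
Log2 fold change of the 6 STAT genes in the 6 comparisons, 1 panel a comparison, with 95% confidence intervals. Filled circles passed an adjusted p of 0.05, as did Stat4 (-2.54), Stat5a (-0.48) and Stat5b (-0.28) in Tim-4+CD4+ against Tim-4-CD4- macrophages.

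Kinases and inhibitors shared by several STATs are given next. Of the 4 JAK kinases, Jak1, Jak2 and Tyk2 were lower in Tim-4-CD4- macrophages than in monocytes, with Tyk2 at 122 ± 8.30 against 223 ± 9.43 CPM, and Jak3 was at 84.6 ± 2.47 against 77.5 ± 21.9 CPM. Of all genes tested there, 28.1% were lower. In Tim-4+CD4+ against Tim-4-CD4- macrophages Jak2 was lower (59.2 ± 10.3 against 79.4 ± 9.25 CPM, edgeR adjusted p = 0.0222), and Jak1 was at 245 ± 50.7 against 268 ± 8.38 CPM, not past the threshold. Of the 8 SOCS family genes Socs2 was higher and Socs3 lower. Over all genes tested in this comparison 11.3% were higher and 11.9% lower, and the counts of these short lists lie near that background. Of the 8 PIAS inhibitors and phosphatases 1 was lower, Ptpn11, the phosphatase SHP2 (95.8 ± 15.9 against 124 ± 2.08 CPM, edgeR adjusted p = 0.0162), and none was higher. Jak2 and Ptpn11 were both lowest in Tim-4+CD4+ replicate 1 (43.8 and 72.1 CPM), the library in which all 6 STAT genes were lowest.

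**Figure D5:**
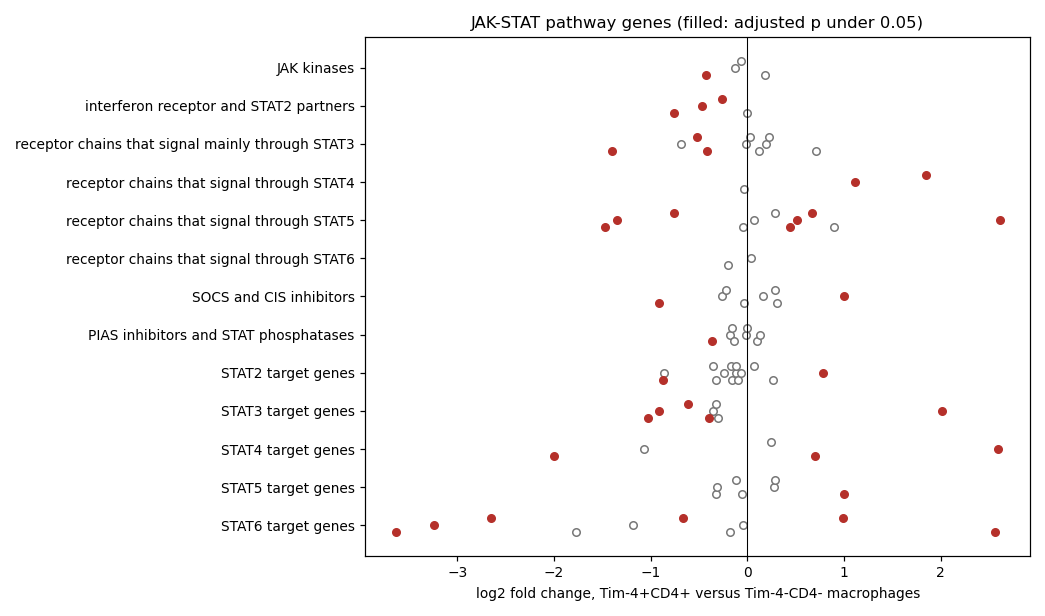
Log2 fold change in Tim-4+CD4+ against Tim-4-CD4- macrophages for each tested gene of 13 JAK-STAT lists, 1 row a list and 1 circle a gene. Filled circles passed an adjusted p of 0.05, as did 2 of 3 STAT4 receptor chains, both higher. Of 8 STAT3 response genes 4 were lower and 1 higher. Over all genes tested 11.3% were higher and 11.9% lower.

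Across the 12 macrophage libraries, the genes whose log2 CPM followed each member most closely are given as a description, since all points share the same 3 subsets and scaling. Libraries of different subsets may also share a sort of pooled mice, as given below. Among 11789 other genes with a mean of at least 1 CPM, Stat4 was followed by Hk1, hexokinase 1 (Pearson r = 0.982), Capn2, a calpain protease (0.978), and Scarf1, a scavenger receptor (0.977). In the order Tim-4-CD4-, then Tim-4-CD4+, then Tim-4+CD4+, Hk1 averaged 84.99 ± 4.02, 75.1 ± 2.84 and 56.03 ± 1.51 CPM. Capn2 averaged 69.03 ± 3.86, 47.9 ± 3.45 and 28.96 ± 3.91 CPM, although it was at 346 ± 26.2 CPM in monocytes, where Stat4 was low. The closest genes to Stat5a were Dgkd (0.978), Atp8b2 (0.975) and Limd1 (0.975), and those to Stat5b were Sh3pxd2b (0.979), Camk1d (0.976) and Myof (0.969). Stat3 was followed by Sec24b (0.97), Trim35 (0.956) and N4bp1 (0.948), Stat6 by Rnf216 (0.96), Umps (0.952) and Ube2h (0.948), and Stat2 by Abca8a (0.936), Gm12258 (0.917) and Stag3 (0.915). Within the family the closest pair was Stat5a and Stat5b (0.931), then Stat4 and Stat5a (0.896), and Stat2 ran against Stat4 (-0.58).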

How the data were processed

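Poly(A) RNA of 15 sorted pools was sequenced as stranded libraries. Per the labels and the methods of the study, the authors used bcl2fastq 2.17.1.14, Trimmomatic 0.36, STAR on GRCm38.p4 with uniquely mapped reads, and HTSeq 0.6.1p1. The strand setting of HTSeq is not given in the sources used here. The deposited table holds raw counts per gene, which were used, and 15 normalized columns, which were not.

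Counts were fitted over all 15 libraries with edgeR 4.0.16 (R 4.3.3), using TMM factors, filterByExpr with a minimum count of 10 and the quasi-likelihood test, for 6 comparisons. The spread of a gene was estimated over all 15 libraries, so p-values among the macrophage subsets also hold the spread between monocyte libraries. Adjusted p-values are Benjamini-Hochberg values over 15802 genes, called under 0.05. CPM were computed from the deposited counts and TMM library sizes. Per-kilobase levels used the union of exons. Intervals are 95% confidence intervals. DESeq2 1.42.0, other scalings, filters, blocks and left-out libraries were alternatives.

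The members and gene lists were chosen with earlier results of these data known. Besides the 6 members, the named genes are the called ones with the largest fold changes, up to 4 a list in Tim-4+CD4+ against Tim-4-CD4- macrophages and up to 3 in Tim-4-CD4- macrophages against monocytes, whole lists of at most 4 genes, and the 3 genes most correlated with each member. Marker genes and overlapping genes are given as levels.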

Additional observations from a re-analysis of the deposited data

Results flagged for a closer look

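Of 159 sets of 4 libraries, 7 had 1 library whose gap to its nearest neighbour took a larger part of the whole range than Dixon's 95% critical value for 4 samples allows, and chance alone flags about 1 in 20 such groups. Stat6 was at 267.7 CPM in Tim-4-CD4- replicate 2, where the next highest library was at 219.7 CPM. Il13ra1, a receptor chain upstream of STAT6, was lowest in the same library, at 94.7 CPM against a next value of 106.5 CPM. In Tim-4+CD4+ replicate 1 Jak2 was at 43.8 CPM and Ptpn11 at 72.1 CPM, below next values of 63.6 and 100.8 CPM. Osm was at 107.4 CPM in Tim-4-CD4+ replicate 3, above a next value of 74.8 CPM. In Tim-4-CD4+ replicate 2 Il23r was at 0.329 CPM, and in Tim-4-CD4+ replicate 1 Chil3, a chitinase-like STAT6 response gene, was at 3.79 CPM against a next value of 0.513 CPM. The causes were not tested.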

How the results depend on the processing

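Of 828 alternative values for the fold changes of the 6 genes, 794 kept their direction and side of the threshold, 19 lost the call, 1 gained it and 14 changed sign. The number of STAT genes called in Tim-4-CD4+ against Tim-4-CD4- macrophages was 2, and it was 1 with RLE factors, with total counts, without a filter and with a replicate block by the title numbers, because Stat5a was lost, at log2 fold changes of -0.24 to -0.26 against -0.26 in the main result. Without single libraries it was 1 to 2, and it stayed at 2 only without replicate 1 or replicate 2 of the Tim-4+CD4+ subset. The titles and descriptions number the Tim-4-CD4+ libraries differently, and same-numbered macrophage libraries correlated between -0.123 and 0.134 (titles) or -0.0888 and 0.161 (descriptions) in their deviations, so that neither numbering was taken to pair the libraries. The largest correlations, up to 0.240, were between macrophage libraries with different title numbers. Tim-4-CD4- replicate 2, for instance, correlated at 0.240 with replicate 3 of the Tim-4-CD4+ and at 0.184 with replicate 3 of the Tim-4+CD4+ subset. Each of these libraries held the highest Stat3, Stat4 and Stat6 of its subset. Libraries of different subsets may therefore come from the same sort of pooled mice in a way that the labels do not give. No fit or permutation test modelled such a pairing. With a replicate block by the description numbers 2 STAT genes were called. The signs that turned belonged to differences near 0. Stat6 in Tim-4+CD4+ against Tim-4-CD4- macrophages became 0.00404 with DESeq2, 0.00419 with RLE factors, 0.0182 with total counts and 0.0102 when genes under a mean of 1 CPM were dropped, and it ran from -0.0482 to 0.0766 without single libraries. Without single libraries Stat6 ran from -0.0467 to 0.0922 in Tim-4-CD4+ against Tim-4-CD4- macrophages, and in Tim-4+CD4+ against the Tim-4-CD4+ subset Stat2 ran from -0.0052 to 0.0777, Stat3 from -0.131 to 0.0092 and Stat6 from -0.0528 to 0.0352. In that last comparison DESeq2 called 901 genes against 539 by edgeR. In Tim-4-CD4+ against Tim-4-CD4- macrophages 1589 genes were called. Leaving out Tim-4-CD4+ replicate 4 gave 1033, whereas leaving out replicate 1 of the Tim-4+CD4+ subset gave 2203. The latter library is in neither subset of that comparison, so it entered only through the filter, scaling and spread estimated over all libraries. What caused either change was not tested. Scaling by total counts moved the median log2 fold change of all genes in Tim-4-CD4- macrophages against monocytes from 0.0812 to -0.0543, and no STAT call against monocytes was lost.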
